A study of Rattus norvegicus with 12 samples.

Results

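The genes described here belong to the unfolded protein response and the integrated stress response, which cells use when proteins misfold in the endoplasmic reticulum (ER) or when translation is curbed. The members were 10 genes chosen by name: the transcription factors Atf4, Ddit3, Atf3 and Xbp1, the pseudokinase gene Trib3, the amino acid enzyme gene Asns, the ER chaperone genes Hspa5, Hsp90b1 and Dnajb9, and the degradation factor gene Herpud1. A probe on the array was taken for a member when the name of its gene, or an older name of it, matched. Of the 10 genes, 9 had a probe, and together they had 12 of the 41012 probes. No probe carried the name Xbp1, which is therefore not analysed here. Hsp90b1 appears in the files under its older name Tra1.

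Misfolded proteins in the ER are sensed by the membrane proteins IRE1 (gene Ern1), PERK (gene Eif2ak3) and ATF6. PERK and its sister kinases phosphorylate the initiation factor eIF2, which slows translation in general but favours that of ATF4, and ATF4 then switches on genes for stress factors, amino acid synthesis and amino acid transport. IRE1, through spliced XBP1, and cleaved ATF6 instead raise the chaperones and the ER-associated degradation (ERAD) machinery.

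Male Sprague-Dawley rats received amiodarone, an antiarrhythmic drug, by mouth at 300 mg/kg per day for 10 days, or the vehicle, 1% methylcellulose. They were 10 weeks old at the start, and the labels also give an age of 11 weeks. RNA of the left ventricle and of blood was pooled, and each of the 4 groups (vehicle heart, amiodarone heart, vehicle blood and amiodarone blood) had 3 pools with 1 single-colour Agilent array each. Nothing says which animals, or how many, formed a pool, so p-values measure only the spread between these pools. Heart RNA and blood RNA were purified with different kits, so tissue and kit cannot be told apart.

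The arrays of the groups were not equally bright. Vehicle blood arrays were the dimmest, with a 75th percentile of the signal of 24.0 ± 2.80 (SD, n = 3), whereas amiodarone blood stood at 73.8 ± 15.6 (SD, n = 3). The heart groups differed less, at 143 ± 31 (SD, n = 3) for vehicle and 130 ± 28 (SD, n = 3) for amiodarone. Spots well above background numbered 14459 to 15548 on vehicle blood arrays, 20625 to 21245 on amiodarone blood arrays and 21233 to 25032 on heart arrays. Levels are therefore given as log2 levels, meaning the log2 of the signal minus that of the 75th percentile of the same array, and only the same probe is compared between arrays. In each tissue pools 1 and 2 of both groups shared a slide, and pool 3 of both groups lay on another. No slide held both tissues, so tissue and slide cannot be told apart either.

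Binding elements of both arms are known in promoters of these genes, and 4 promoters are printed because they hold such a motif and belong to a gene with a probe. They are the 300-base windows around the annotated gene start in the RefSeq table, on rat build GRCr8, written 5′ to 3′ in the direction of the gene. Capitals in Herpud1 mark a CARE, the site of ATF4 and its partners (TGATGNAA, here on the opposite strand), and then an ERSE-II, the element of ATF6 and XBP1 in which ATTGG and CCACG stand 1 base apart. Capitals in Trib3 mark a CARE on the opposite strand, and capitals in Hspa5 and Hsp90b1 mark ERSE elements, in which CCAAT and CCACG stand 9 bases apart, once on the opposite strand in Hsp90b1.
Herpud1, chr19:10614658-10614957, minus strand: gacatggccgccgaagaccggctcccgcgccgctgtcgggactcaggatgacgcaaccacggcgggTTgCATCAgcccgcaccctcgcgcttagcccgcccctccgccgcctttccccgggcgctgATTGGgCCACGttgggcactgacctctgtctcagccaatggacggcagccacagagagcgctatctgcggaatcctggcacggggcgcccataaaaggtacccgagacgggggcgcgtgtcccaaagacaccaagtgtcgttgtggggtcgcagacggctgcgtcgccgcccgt
Trib3, chr3:161275484-161275783, minus strand: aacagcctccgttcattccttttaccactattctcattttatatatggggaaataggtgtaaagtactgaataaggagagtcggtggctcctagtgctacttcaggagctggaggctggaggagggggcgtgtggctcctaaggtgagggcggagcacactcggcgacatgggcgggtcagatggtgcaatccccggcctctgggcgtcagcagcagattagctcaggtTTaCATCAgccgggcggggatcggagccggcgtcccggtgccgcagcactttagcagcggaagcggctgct
Hspa5, chr3:38452766-38453065, plus strand: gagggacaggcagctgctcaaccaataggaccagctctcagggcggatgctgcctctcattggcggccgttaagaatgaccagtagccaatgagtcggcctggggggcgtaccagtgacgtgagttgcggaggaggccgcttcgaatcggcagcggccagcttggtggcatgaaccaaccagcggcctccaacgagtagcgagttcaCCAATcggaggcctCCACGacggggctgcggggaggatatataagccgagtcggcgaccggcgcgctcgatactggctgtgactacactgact
Hsp90b1, chr7:23012244-23012543, minus strand: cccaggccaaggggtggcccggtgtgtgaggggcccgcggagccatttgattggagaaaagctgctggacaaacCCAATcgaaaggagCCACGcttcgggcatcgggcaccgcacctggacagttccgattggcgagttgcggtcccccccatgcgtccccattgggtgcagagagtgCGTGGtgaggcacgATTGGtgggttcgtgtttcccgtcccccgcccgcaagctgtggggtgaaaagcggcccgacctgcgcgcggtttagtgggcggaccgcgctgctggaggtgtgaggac

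Of the 10 members, 9 had a window in the table, and Atf3 is named only. The ERSE was found in 3 of these 9 windows (Hspa5, Hsp90b1 and Xbp1) and in 0.0657% of all 33469 windows. In Hspa5 it lay at positions -43 to -25, in Xbp1 at -65 to -47, and in Hsp90b1 at both -176 to -158 and -72 to -54, counted from the gene start. The ERSE-II was found only in Herpud1 among the members, at -124 to -114, and in 0.0508% of all windows. The CARE was found in Herpud1 at -184 to -177 and in Trib3 at -21 to -14, and in 3.98% of all windows. The short element CCACG, which every ERSE and ERSE-II contains, was in 8 of 9 member windows and in 31.6% of all windows. The cyclic AMP element TGACGTCA was in no member window and in 1.83% of all windows, and the UPRE core TGACGTG was in that of Hspa5 and in 1.81% of all windows. All motifs were searched on both strands. A match describes these letters only, and a window without one says nothing of a factor's binding.

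**Figure D1:**
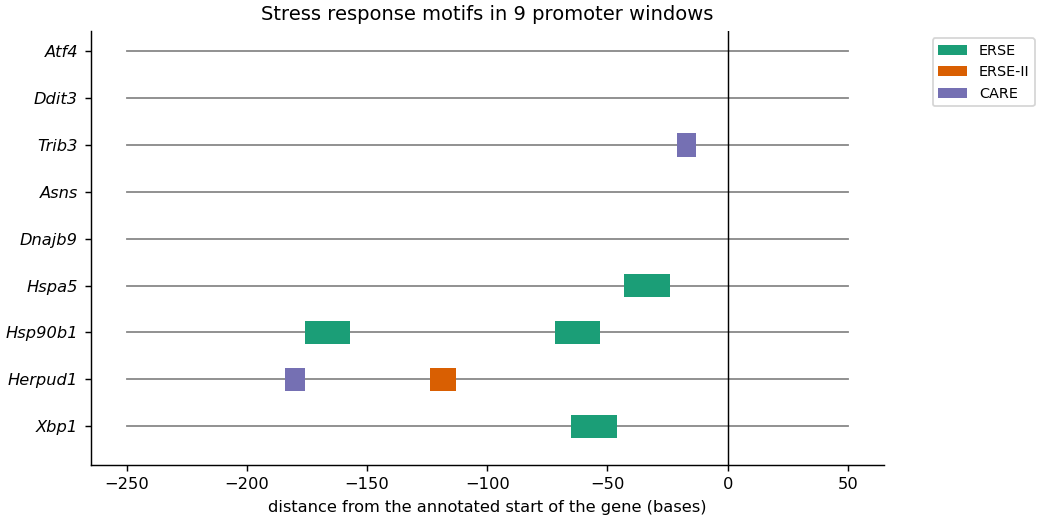
Position of the ERSE, ERSE-II and CARE motifs in the promoter windows of 9 members, in bases from the annotated gene start (vertical line). Herpud1 is the one member window with both a CARE (-184 to -177) and an ERSE-II (-124 to -114), and Trib3 holds a CARE alone.

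In rats given only the vehicle, the ER chaperone and degradation genes had higher log2 levels in heart than in blood, whereas Asns stood far higher in blood. All 9 measured members passed the threshold (adjusted p below 0.05, limma with Benjamini-Hochberg over all 20054 features tested), 6 higher in heart and 3 higher in blood. Of all features 81.1% passed, 42.2% higher in heart and 38.9% lower, so the members' count is to be read against this background. Groups did not overlap for 83% of features, 43.5% higher in heart and 39.6% lower. The median difference of the members was 1.99, or 1.67 with Atf3 at its bound, against 0.17 for all features. Of the calls 52.0% were higher in heart, a share that became 83.1% without scaling and 62.0% with scaling to the array median.

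Asns encodes asparagine synthetase, which makes asparagine from aspartate and glutamine. Its log2 level was -2.08, -1.70 and -1.77 in the vehicle heart pools 1 to 3, and 4.84, 4.95 and 5.39 in the vehicle blood pools. The tissues lay far apart, and vehicle blood was 120-fold higher (log2 difference heart minus blood -6.91, SE 0.27, adjusted p = 5.26e-10). The difference was smaller but still past the threshold without scaling (-4.35), with spike-in scaling (-4.69) and after normexp background correction (-4.47). Hspa5, which encodes BiP, the main HSP70 chaperone of the ER lumen, had log2 levels of 5.86, 5.90 and 5.71 in vehicle heart and of 2.62, 2.57 and 2.64 in vehicle blood. It was 9.30-fold higher in heart (3.22, SE 0.17, adjusted p = 7.77e-09). Herpud1, which encodes a membrane protein that recruits the ERAD ubiquitin ligase, was higher in heart by 2.56 (SE 0.19). Hsp90b1, the gene of the ER chaperone GRP94, was higher in heart by 2.21 (SE 0.28) on its brighter probe. Its other probe gave 0.64 (SE 0.23, adjusted p = 0.0222), with overlapping groups. Without scaling the median of all features moved to 2.73, and Hspa5, Herpud1 and Hsp90b1 differed by 5.77, 5.11 and 4.76. For Dnajb9, the gene of the BiP cochaperone ERdj4, 1 probe was well above background on 1 of 3 vehicle blood arrays and the other on none, and heart was at least 4.97-fold higher on the latter.

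Of the transcription factor and pseudokinase genes, 2 were higher in untreated heart and 2 in untreated blood. Atf4 was higher in heart by 0.62 (SE 0.22, adjusted p = 0.0194). It lost its call without vehicle heart pool 3 (0.60), without vehicle blood pool 1 (0.42) and without vehicle blood pool 2 (0.58). Atf3, an early stress-induced factor, was not well above background on any vehicle blood array, and heart was at least 3.17-fold higher. The bound sets the heart mean against the weakest signal that counted as measured on the blood arrays. Ddit3, which encodes the factor CHOP, was lower in heart by the log2 difference of -0.51 (SE 0.20), but the sign turned with no scaling (2.04), array median scaling (0.09), spike-in scaling (1.71) and normexp background correction (0.48). Its call was also lost without vehicle heart pool 1 (-0.43) or 2 (-0.50), or vehicle blood pool 2 (-0.46) or 3 (-0.53). Trib3 differed by -0.995 (SE 0.27), and this sign too turned without scaling (1.56) and with spike-in scaling (1.23). Its call was lost with array median scaling (-0.39) and after normexp background correction (-0.39).

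**Figure D2:**
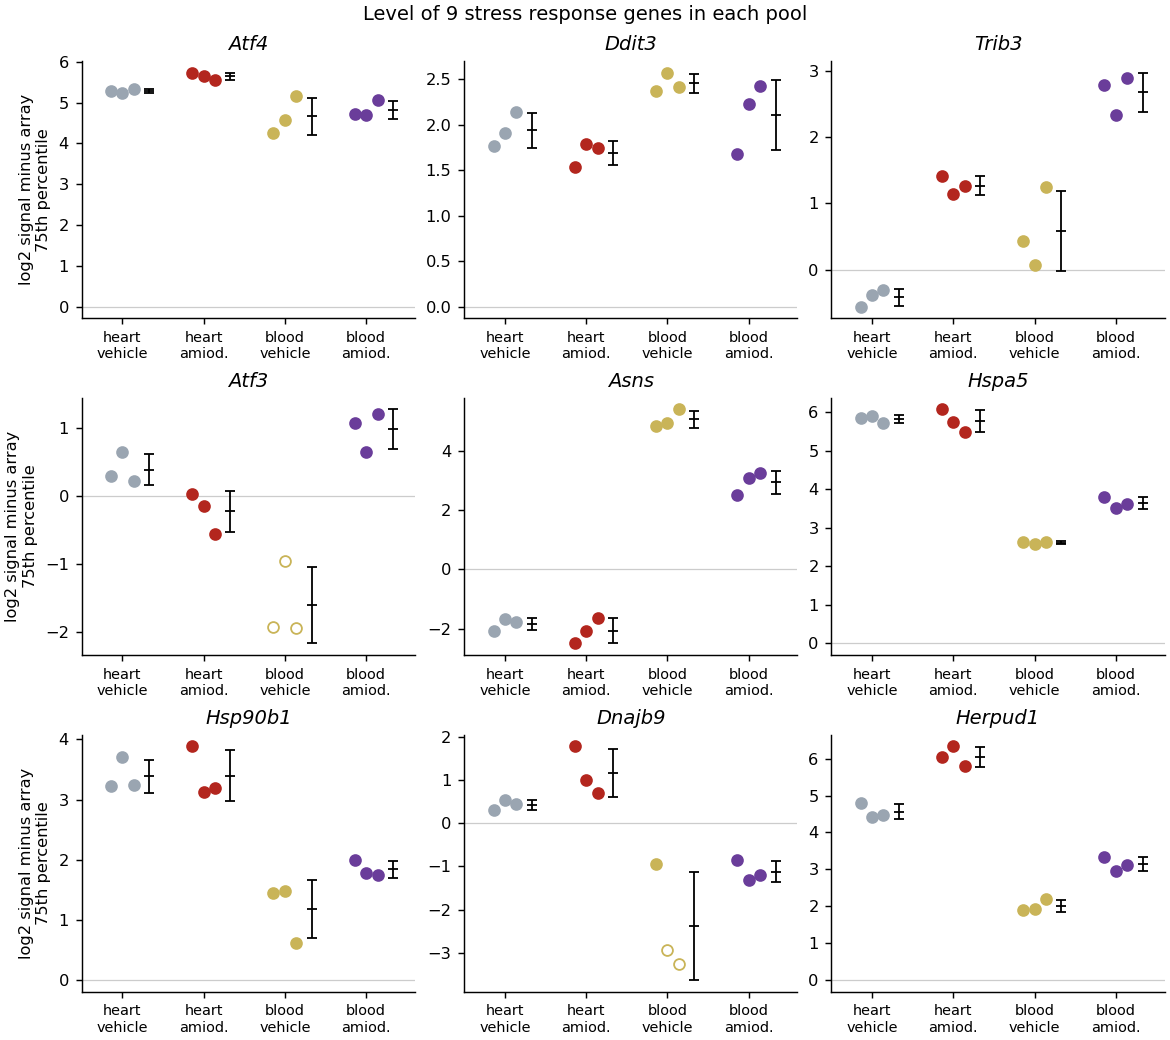
Log2 level (signal relative to the array's 75th percentile) of 9 members in each of the 3 pools of the 4 groups, from left to right pools 1 to 3, with the mean and SD in black; open circles were not well above background. For Dnajb9, Herpud1 and Hsp90b1 the probe used across both tissues is shown. Trib3 and Herpud1 lay higher in every amiodarone pool than in every vehicle pool in both tissues.

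In the left ventricle, 2 of 9 members rose after amiodarone, Trib3 and Herpud1, and none fell past the adjusted threshold of limma. At an unadjusted p below 0.05 the counts were 4 higher and 1 lower. Of all 17465 heart features tested 8.57% passed, 4.33% higher and 4.23% lower. The median difference of the members was 0.01, close to the 0.02 of all features. Both genes that rose have a CARE in the promoter window, and the window of Herpud1 also holds an ERSE-II. Hspa5 and Hsp90b1, whose windows hold an ERSE, differed by -0.06 and 0.01. A link between motif and change was not tested. Of all calls 50.6% were higher in amiodarone pools, a share that was 64.1% with array median scaling, 62.0% with spike-in scaling and 30.6% without scaling.

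Trib3 encodes a pseudokinase that is induced by ATF4 and CHOP and binds AKT. Its log2 level was -0.55, -0.37 and -0.30 in the vehicle heart pools and 1.41, 1.14 and 1.26 in the amiodarone heart pools. The groups lay well apart, with the pools of each group close together. The level was 3.20-fold higher with amiodarone (log2 difference 1.68, SE 0.15, adjusted p = 0.00106). The difference was 1.74 within the slide of pools 1 and 2, and it stayed past the threshold in all 12 other settings and in all 6 fits that left out a pool (1.61 to 1.75).

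Atf4 and Ddit3, which stand upstream of Trib3 in the textbook pathway, did not pass. The log2 level of Atf4 was 5.29, 5.24 and 5.32 in vehicle heart and 5.72, 5.66 and 5.54 in amiodarone heart. The groups did not overlap, but the difference of 0.35 (SE 0.13, adjusted p = 0.140) missed the threshold. Non-overlap was common in heart, being seen for 32.6% of all features, 18.9% higher and 13.7% lower. Ddit3 had log2 levels of 1.76, 1.91 and 2.14 in vehicle heart and 1.53, 1.78 and 1.74 in amiodarone heart. These ranges overlapped, and the difference was -0.25 (SE 0.16, adjusted p = 0.358).

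Atf3 was the member with the most negative difference in heart. Its log2 level was 0.30, 0.64 and 0.21 in vehicle pools and 0.02, -0.15 and -0.56 in amiodarone pools. Every amiodarone pool lay below every vehicle pool, yet the difference of -0.61 (SE 0.20, adjusted p = 0.108) did not pass. Asns, also a target of ATF4, was dim in heart, with log2 levels between -2.50 and -1.64 over the 6 pools and overlapping groups (-0.22, SE 0.23, adjusted p = 0.597).

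On the ER side, Herpud1 had log2 levels of 4.79, 4.43 and 4.48 in vehicle heart and 6.04, 6.34 and 5.80 in amiodarone heart. All amiodarone pools stood above all vehicle pools. The brighter probe was 2.81-fold higher with amiodarone (1.49, SE 0.19, adjusted p = 0.00449), with 1.58 within the slide of pools 1 and 2. This call, too, was kept in all 12 other settings and in all 6 fits that left out a pool (1.35 to 1.62). The brighter probe lies at chr19:11036709-11036768 and the dimmer one at chr19:11040019-11040078, both on the minus strand of build rn4 as the files give it.

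The dimmer Herpud1 probe read 3.41, 3.25 and 3.50 in vehicle heart and 3.56, 4.95 and 4.79 in amiodarone heart. Amiodarone pool 1 sat just above the vehicle pools here, while its brighter probe was high. In the fit of every probe the dimmer probe differed by 1.05 (SE 0.35, adjusted p = 0.121) and did not pass. The probes thus had the same direction and differed in pool 1.

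The chaperones differed among themselves in heart. Dnajb9 had log2 levels of 0.87, 0.91 and 0.90 in vehicle pools and 2.09, 1.61 and 1.26 in amiodarone pools on its brighter probe. The vehicle pools were nearly equal and all amiodarone pools lay above them with a wide spread (0.76, SE 0.21, adjusted p = 0.0752). Its other probe gave 0.74 (SE 0.27, adjusted p = 0.152), also with no overlap. The call of the brighter probe was gained without amiodarone heart pool 3 (0.96) and with normexp background correction (0.62).

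Hspa5 read 5.86, 5.90 and 5.71 in vehicle heart and 6.07, 5.74 and 5.49 in amiodarone heart, with overlapping groups (-0.06, SE 0.18, adjusted p = 0.866). Hsp90b1 read 3.22, 3.70 and 3.24 against 3.89, 3.12 and 3.19, also overlapping (0.01, SE 0.25, adjusted p = 0.983). Both signs turned under other scalings. The other Hsp90b1 probe gave -0.34 (SE 0.20, adjusted p = 0.344), so its probes had opposite signs and neither passed.

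Markers of other cell types moved in the same hearts. The cardiomyocyte list, from Myh6 to Pln, took 2.10% to 2.43% of the summed probe signal in vehicle pools and 1.97% to 2.09% in amiodarone pools, and 0 of 7 genes passed limma's adjusted threshold (also 0 at an unadjusted p below 0.05). Red cell markers fell from 0.0283% to 0.0357% of the signal down to 0.00495% to 0.00578%, with 4 of 6 lower, and Epb42 was not well above background on any amiodarone array. Of the fibroblast markers 4 of 6 fell (Col1a1, Col1a2, Col3a1 and Lum), while Pdgfra (0.46) and Dcn (0.39) were higher and did not pass. Of the macrophage markers 2 of 5 rose. Of the 3 neutrophil markers tested S100a8 (2.12, adjusted p = 0.0118) and S100a9 (1.88, adjusted p = 0.00998) rose and Lcn2 fell (-0.75, adjusted p = 0.0351). The whole neutrophil list took 0.000590% to 0.000753% of the signal in vehicle and 0.000665% to 0.00101% in amiodarone pools, and Csf3r, Mmp8 and Mpo were not well above background on any heart array. In bulk samples, fewer cells of a type and less RNA per cell cannot be told apart. The part of these cell types in the differences of Trib3 and Herpud1 was not tested.

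**Figure D3:**
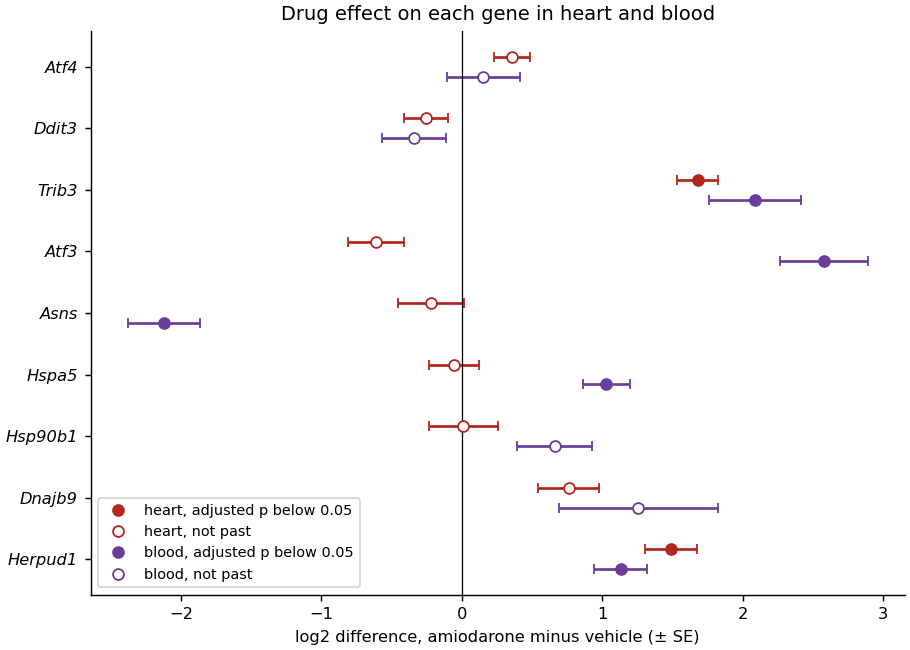
Log2 difference (amiodarone minus vehicle) of each member in heart and blood with its standard error, from 3 pools per group; filled circles passed an adjusted p of 0.05. Trib3 and Herpud1 are filled in both tissues, Atf3, Asns and Hspa5 in blood alone, where the Atf3 value is set against arrays not well above background.

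In blood, 4 members passed as higher relative to the 75th percentile (Trib3, Atf3, Herpud1 and Hspa5) and Asns as lower. Of these, Atf3 is set against vehicle arrays not well above background. Of the 15666 blood features tested 67.4% passed, 40.3% higher and 27.1% lower, so that 5 of 9 members is not above the background. Groups did not overlap for 73.8% of the blood features, 44.9% higher and 28.9% lower. The median difference of the members was 1.03, against 0.44 for all features. The share of calls that were higher was 59.7%, and it became 97.5% without scaling, 97.1% with spike-in scaling, 69.4% with array median scaling and 47.2% in the authors' value table. These settings moved the median of all features from 0.44 to 2.04, 1.70, 0.73 and 0.19. Differences are therefore also given relative to the median feature, and a constant shift of a whole array does not alter these. The median itself depends on the features tested, being 0.18 with the stricter filter and -1.08 without a filter.

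Trib3 had log2 levels of 0.43, 0.08 and 1.25 in vehicle blood and 2.79, 2.34 and 2.89 in amiodarone blood. The groups did not overlap, and vehicle pool 3 was the highest of its group. The difference was 2.09 (SE 0.33, adjusted p = 0.00193), or 1.65 above the median feature. In heart, the matching value above the median feature was 1.66. The blood call was lost after normexp background correction (1.04) and kept in the other 11 settings.

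Atf3 rose in blood from vehicle levels that had only an upper bound. Its log2 level was -1.92, -0.96 and -1.94 in vehicle blood, where no array was well above background, and 1.07, 0.65 and 1.21 in amiodarone blood. All 3 amiodarone arrays measured it clearly, and the level was at least 4.78-fold higher. The limma test (adjusted p = 0.00104) was of the fitted difference of 2.58. That difference rests on vehicle values not above background, so the test is not one of the bound. After normexp background correction the log2 difference was 0.62 (adjusted p = 0.0411), below those of Trib3, Hspa5 and Herpud1 in that setting. Herpud1 read 1.90, 1.93 and 2.20 in vehicle blood and 3.34, 2.96 and 3.13 in amiodarone blood, with no overlap (1.13, SE 0.19, adjusted p = 0.00233). Here its dimmer probe gave the like value of 1.17 (SE 0.19, adjusted p = 0.00229).

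Hspa5 had log2 levels of 2.62, 2.57 and 2.64 in vehicle blood and 3.80, 3.50 and 3.61 in amiodarone blood. The groups lay apart by more than the spread within either (1.03, SE 0.17, adjusted p = 0.00220). Relative to the median feature the rises of Herpud1 and Hspa5 were 0.70 and 0.59. Both calls were lost after normexp background correction (0.73 and 0.75).

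Asns went the other way, with log2 levels of 4.84, 4.95 and 5.39 in vehicle blood and 2.50, 3.08 and 3.24 in amiodarone blood. Every amiodarone pool was lower (-2.12, SE 0.26, adjusted p = 0.00106), and relative to the median feature the difference was -2.56. The unscaled signals, by contrast, overlapped, at 644 to 1048 in vehicle and 481 to 725 in amiodarone pools on arrays that were brighter as a whole in amiodarone pools. The fall was not past the threshold without scaling (-0.52), with spike-in scaling (-0.86) and after normexp background correction (-1.93).

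The remaining members did not pass in blood. Dnajb9 was well above background on 1 of 3 vehicle arrays and on all 3 amiodarone arrays, with log2 levels of -0.94, -2.94 and -3.25 against -0.84, -1.31 and -1.21. The groups overlapped through vehicle pool 1 (1.26, SE 0.57, adjusted p = 0.0829), and the gene passed without that pool (1.98) and in 4 of 11 other settings. Vehicle pool 1 was the only vehicle pool that measured it, so the 1.98 is no measured size. Hsp90b1 read 1.45, 1.48 and 0.62 against 2.002, 1.78 and 1.74, with no overlap (0.66, SE 0.27, adjusted p = 0.0581). It passed in 6 of 12 other settings, among them array median scaling (0.95), no scaling (2.26) and the slide as a block (adjusted p = 0.0275). Its other probe gave 0.44 (SE 0.24, adjusted p = 0.134), with overlapping groups.

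Atf4 and Ddit3 had overlapping groups in blood. Atf4 had log2 levels of 4.26, 4.58 and 5.16 in vehicle and 4.71, 4.68 and 5.07 in amiodarone pools (0.15, SE 0.26, adjusted p = 0.614). Ddit3 had 2.37, 2.57 and 2.41 against 1.68, 2.23 and 2.42 (-0.34, SE 0.23, adjusted p = 0.214), and its sign turned without scaling (1.26) and with spike-in scaling (0.92). Amiodarone pool 1 was the lowest Ddit3 pool. Within the slide of pools 1 and 2 the differences of the called genes other than Atf3 were 2.31 for Trib3, 1.24 for Herpud1, 1.06 for Hspa5 and -2.11 for Asns.

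The cell type markers of blood moved as well. Red cell markers took 2.60% to 3.02% of the summed signal in vehicle blood and 0.965% to 1.54% in amiodarone blood, and 6 of 6 fell. Neutrophil markers took 0.0121% to 0.0172% and then 0.0699% to 0.127%, with 4 of 5 higher, although Mpo was not well above background on any array. Mmp8, among the higher, was not well above background on any vehicle array. Platelet markers took 0.298% to 0.369% and then 0.739% to 1.02%, with 4 of 5 higher. T cell, natural killer cell and B cell markers rose in 4 of 6, 5 of 6 and 1 of 4 genes. The part of these cell types in the member differences was not tested.

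**Figure D4:**
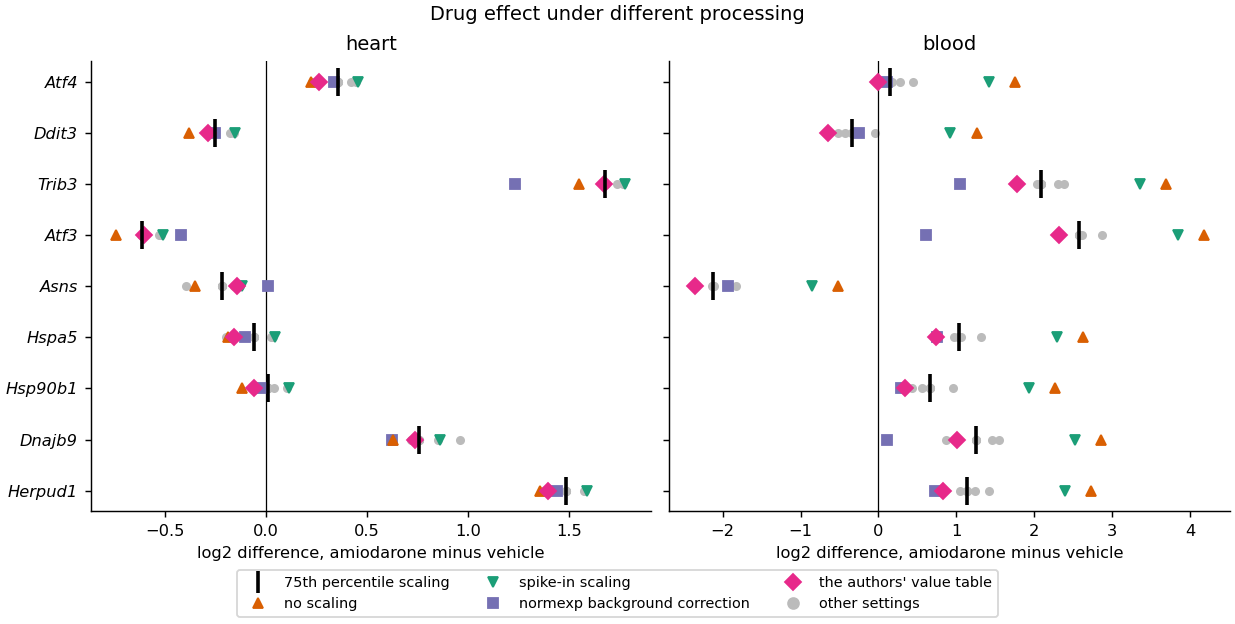
Log2 difference (amiodarone minus vehicle) of each member in heart (left) and blood (right) under 13 processing settings; the black bar is the scaling to the 75th percentile used in the text. In heart the values of Trib3 and Herpud1 stay above 1 under every setting, while in blood the values without scaling and with spike-in scaling lie to the right of all others, by about the shift of the median feature.

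The contrast of both drug effects in 1 fit of all 12 arrays asked whether heart and blood responded differently. Of 13042 features tested in both tissues 51.3% passed, 18.9% with the higher effect in heart and 32.4% with the lower one, and 3 of 9 members passed. Of these calls 36.9% were higher in heart, a share that was 27.3% with array median scaling, 2.02% with spike-in scaling and 0.867% without scaling. Atf3 differed by -0.61 in heart and was at least 4.78-fold higher in blood. The fitted contrast of its effects, -3.19 (adjusted p = 0.000210), is no measured size, since vehicle blood had only an upper bound, and it was -1.04 (adjusted p = 0.0107) after normexp background correction. Asns differed by 1.90 (SE 0.36, adjusted p = 0.00180) and Hspa5 by -1.09 (SE 0.23, adjusted p = 0.00330). The Asns difference was not past the threshold without scaling (0.17) and with spike-in scaling (0.73), nor was that of Hspa5 after normexp background correction (-0.85).

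For the 2 genes that rose in both tissues the test found no difference in size. The contrast was -0.41 (SE 0.37, adjusted p = 0.361) for Trib3 and 0.36 (SE 0.26, adjusted p = 0.258) for Herpud1, and a p above the threshold does not show that the effects were alike. For Trib3 it passed without vehicle blood pool 3 (-0.74), without scaling (-2.14) and with spike-in scaling (-1.57). For Herpud1 it passed without scaling, with the sign turned (-1.38). Atf4, Ddit3, Dnajb9 and Hsp90b1 gave 0.20, 0.09, -0.52 and -0.65, none past the threshold.

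Over the 4 groups, several genes shared an order of mean log2 levels, an order that for some genes depends on the scaling. Herpud1, Atf4, Dnajb9 and the brighter Hsp90b1 probe descended from amiodarone heart through vehicle heart and amiodarone blood to vehicle blood. Of these, Dnajb9 was well above background on at most 1 of 3 vehicle blood arrays. Neighbouring groups never overlapped for Herpud1, whereas the blood groups overlapped for Atf4 and Dnajb9 and the heart groups for Hsp90b1. Asns and Ddit3 descended from vehicle blood through amiodarone blood and vehicle heart to amiodarone heart, with overlap between the heart groups for Asns and at every step for Ddit3. Hspa5 ran from vehicle heart through amiodarone heart, which overlapped it, and amiodarone blood to vehicle blood. Trib3 was highest in amiodarone blood, followed by amiodarone heart and vehicle blood, which overlapped, and lowest in vehicle heart. Atf3 ran from amiodarone blood through vehicle heart to amiodarone heart, with gaps of 0.01 and 0.19 between neighbouring groups, and its level in vehicle blood had only an upper bound. In mean unscaled signal, Ddit3 instead ran from vehicle heart (554) through amiodarone heart (424) and amiodarone blood (320) to vehicle blood (131). Trib3 was then lowest in vehicle blood (39.0, against 109 in vehicle heart). Atf3 was then highest in vehicle heart (191), and the brighter Hsp90b1 probe was higher in vehicle heart than in amiodarone heart. The other members kept their order.

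Beyond the members, the wider pathway was followed through 5 lists of genes. In heart the list counts are to be read against all features, of which 8.57% passed, 4.33% higher and 4.23% lower. The calls in these lists were all higher. Of the stress kinases and ER sensors 1 of 9 tested rose, namely Ern1 (0.70, SE 0.16, adjusted p = 0.0414), the gene of the sensor IRE1. Of the integrated stress response targets 3 of 32 rose and none fell in limma, against 5 and 2 at an unadjusted p below 0.05. These were Txnip (1.95, SE 0.16), whose product binds thioredoxin, Cebpb (1.53, SE 0.20), a leucine zipper transcription factor, and Slc3a2 (0.89, SE 0.19), the heavy chain of amino acid transporters. The median of that list was -0.06.

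The ER machinery of the heart gave 1 call in each list. Of the chaperones and folding enzymes 1 of 19 rose, the ER oxidase gene Ero1a (0.61, SE 0.15). Of the ERAD genes 1 of 13 rose, the ubiquitin-conjugating enzyme gene Ube2j1 (0.55, SE 0.13), and of the translocation genes 1 of 18, Sec63 (0.61, SE 0.14), whose product helps proteins enter the ER. The medians of these lists were 0.03, 0.16 and 0.16.

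The rises of Ern1, Slc3a2, Ero1a, Ube2j1 and Sec63 were close to the threshold, whereas those of Txnip and Cebpb were not. Txnip and Cebpb kept their calls in all 6 fits that left out a pool, with differences of 1.83 to 2.06 and of 1.38 to 1.69. No such fit kept the call of Sec63. Ern1 and Ero1a kept theirs only without amiodarone pool 3 (0.81 and 0.72), and Slc3a2 and Ube2j1 only without amiodarone pool 1 (1.07 and 0.60).

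**Figure D5:**
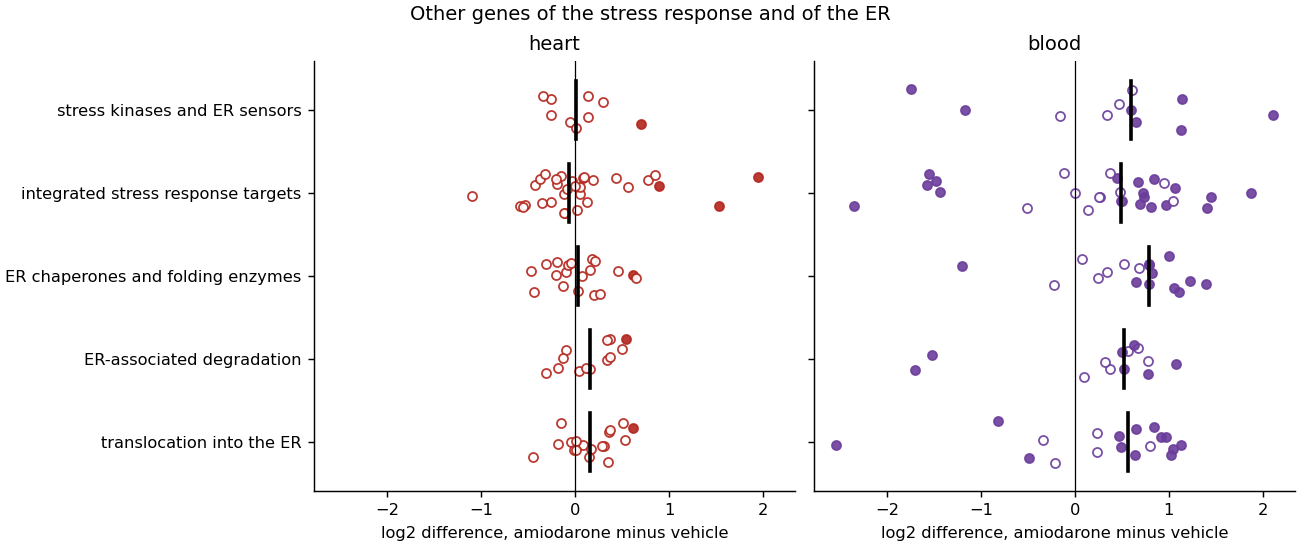
Log2 difference (amiodarone minus vehicle) of each tested gene of 5 pathway lists in heart (left) and blood (right); filled circles passed an adjusted p of 0.05 and black bars are list medians. In heart the medians lie between -0.06 and 0.16, and in blood between 0.49 and 0.79, or 0.37 and 0.79 with genes that have only a bound set to it.

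In blood the same lists held many calls in both directions, as did all features (40.3% higher, 27.1% lower). Of the integrated stress response targets 13 of 29 rose and 5 fell. The higher ones included a gene not well above background on any vehicle array, whose rise has no measured size. The 4 with the smallest p all fell: Chac1 (-1.48), which degrades glutathione, Pck2 (-2.35), a mitochondrial gluconeogenic enzyme, Wars1 (-1.55), the tryptophan tRNA ligase, and Slc3a2 (-1.57). Without scaling Chac1 (0.12), Wars1 (0.05) and Slc3a2 (0.03) changed sign. These falls ran beside the fall of all 6 red cell markers, whose part in them was not tested.

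Of the stress kinases and sensors 5 of 11 rose and 2 fell in blood. Eif2ak1, the haem-regulated eIF2 kinase of red cell precursors, fell by 1.75 on the log2 scale (SE 0.21), while Eif2ak2, the kinase activated by double-stranded RNA, rose by 1.14 (SE 0.23). Nck1, an adaptor, rose by 1.13 (SE 0.20), and Ern1, not well above background on any vehicle blood array, was at least 1.87-fold higher. The Eif2ak1 difference was not past the threshold without scaling (-0.14), with spike-in scaling (-0.48) and after normexp background correction (-1.71).

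Chaperones and folding enzymes rose in 10 of 17 cases in blood and fell in 1. Hspa13 (1.39), P4hb (1.00), the gene of a protein disulfide isomerase, and Dnajc3 (1.11), the gene of an inhibitor of eIF2 kinases, rose, while Calr, the gene of calreticulin, fell (-1.21). The sign of Calr turned without scaling (0.39) and with spike-in scaling (0.06). Of the ERAD genes 5 of 13 rose and 2 fell, with the ubiquitin-conjugating enzyme gene Ube2j1 (-1.53) among the lower and the lectin gene Os9 (0.78) and the ATPase gene Vcp (0.63) among the higher. The higher ones included a gene not well above background on any vehicle array, with a rise of at least 1.13-fold. Vcp lost its call without amiodarone blood pool 3 (0.57), and Ube2j1 changed sign without scaling (0.07).

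Translocation genes rose in 10 of 18 cases in blood and fell in 3. Sec61g, a subunit of the translocation channel, fell by 2.55 on the log2 scale (SE 0.36). Srp72 (0.97) of the signal recognition particle, Ssr3 (1.02) of the translocon-associated complex and Sec63 (0.91) rose, the last being well above background on 1 of 3 vehicle arrays. After normexp background correction most of these calls were lost, as were those of Hspa5, Herpud1 and Trib3.

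Genes with the pattern most like a member were sought for Ddit3 and Hspa5 among 7743 genes measured in both tissues, by the root mean square difference of log2 levels over the 12 arrays after subtracting each tissue's mean. Nearest to Ddit3 were Ada (0.147), Mad2l1bp (0.148), Scamp4 (0.152) and Otop2 (0.152). Nearest to Hspa5 were Itpa (0.0898), Mob1a (0.0942), Foxn3 (0.0986) and Med14 (0.0988). The drug effect of these neighbours of Hspa5 lay between -0.06 and 0.12 in heart and between 0.80 and 1.15 in blood. They were chosen over the same arrays, so their closeness to the effects of Hspa5 follows from the choice.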

How the data were processed

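The members and the gene lists were chosen with earlier results of these data known. The deposited scanner files give, per the file headers, each spot's processed intensity from Agilent Feature Extraction (background-subtracted and detrended, not normalized between arrays), its mean and background intensity, and other columns of flags. The authors' value table holds their normalized intensity on a linear scale, made for heart and blood separately, and was used as 1 of the alternatives.

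There were 43379 non-control spots of 41012 probes, named by accession (16327), symbol (3751) or synonym (1108) through RefSeq's rat genes, or as in the file (19826). Outlier spots were dropped, log2 values of the deposited intensity were averaged per probe, and the log2 of the array's percentile 75 was subtracted. A probe entered a fit if 1 group or more had it well above background in all 3 pools, and each gene took its brightest such probe. For a gene dim in one group, the bound uses the larger of its own value and the dimmest signal well above background. Marker shares are of the summed signal of all probes.

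Fits used limma 3.58.1 in R 4.3.3 (with the data.table package, version 1.17.8), two-sided, with Benjamini-Hochberg adjustment over all features tested and a threshold of 0.05. Each tissue was fitted alone, and the contrasts between tissues came from 1 fit of 12 arrays. The limma step was tested on simulated data. An exact permutation test of 3 against 3 pools cannot go below p = 0.1, so none was used. Of each list the up to 4 genes with the smallest p past the threshold are named per tissue, except 1 that is not reported here. The alternatives were normexp (offset 50), 4 other scalings, the value table, other filters, every probe, slide and replicate blocks, pools 1 and 2 only and each pool left out. Precision is limited by the number of arrays. The largest correlation between any pair of arrays was 0.9853, and none were identical. Within a tissue, no pairing of vehicle and amiodarone pools by number was shown. Nothing says whether heart and blood pools of the same number share animals, and the fit of 12 arrays treated them as independent.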

Additional observations from a re-analysis of the deposited data

Results flagged for a closer look

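These genes had drug effects that differed between heart and blood by the limma contrast of both effects over 12 arrays, given as the log2 effect in heart minus that in blood. Among the members these were Atf3 (-3.19, adjusted p = 0.000210), Asns (1.90, adjusted p = 0.00180) and Hspa5 (-1.09, adjusted p = 0.00330). Among the other named genes of the pathway, of those named in both tissues, they were Slc3a2 (2.46, adjusted p = 0.000213) and Ube2j1 (2.07, adjusted p = 0.000375). Ern1 also passed the fitted contrast (-1.40, adjusted p = 0.0345). Atf3 and Ern1 were not well above background on any vehicle blood array, so their contrasts are no measured sizes. The blood rise of Ern1 was bounded at 1.87-fold or more beside 0.70 on the log2 scale in heart, and this bound does not show how far the tissues differed. Of all features tested in both tissues 51.3% passed the same contrast. No group had the 4 samples that a check for a lone outlying pool needs.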

How the results depend on the processing

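In heart, Trib3 and Herpud1 kept direction and call under all 12 other settings and all 6 fits that left out a pool. The count of features past the threshold in heart, 1496, was 735 without scaling, 944 with spike-in scaling, 292 without a filter, 269 with pools 1 and 2 only and 514 to 1324 with 1 pool left out. No paired design was shown within a tissue. Same-numbered vehicle and amiodarone pools correlated in their deviations by -0.165, -0.238 and 0.316 in heart and 0.0847, 0.172 and 0.308 in blood. Pairing of heart with blood pools was not checked. With the replicate number as a block the heart count was 696, and the member counts were 2 in heart, 7 in blood, 3 in the contrast of effects and 9 between vehicle tissues.

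In blood, 10558 features passed, against 1289 after normexp and 24672 without a filter, and the 5 members became 1 after normexp and 8 without scaling. The normexp offset of 50 is added to every signal and makes log2 differences of dim probes smaller. It is larger than the mean 75th percentile of vehicle blood arrays, 24.0, so smaller blood differences after normexp follow in part from the setting. In the contrast of effects, 6693 became 1237 after normexp, 10267 without scaling and 18897 without a filter, and the 3 members became 8 without scaling and 5 with spike-in scaling. Between vehicle tissues, 16266 became 29979 without a filter and 7540 with the stricter filter, which dropped Atf3 and Dnajb9 from every fit with blood arrays. The other leave-one-out counts stayed within 1.5 times.

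Small differences changed sign. In heart these were Asns after normexp (0.0083), Hsp90b1 after normexp (-0.0185), quantile scaling (-0.0641), no scaling (-0.119), the value table (-0.0607) and pools left out (-0.23 to 0.17), and Hspa5 with array median (0.0326) or spike-in scaling (0.0418), pools 1 and 2 only (0.0237) and pools left out (-0.209 to 0.0802). In blood they were Atf4 in the value table (-0.0051) and with pools left out (-0.0467 to 0.398), Ddit3 without scaling (1.26) and with spike-ins (0.92), Calr likewise (0.395, 0.0588), and, without scaling, Chac1 (0.119), Slc3a2 (0.0300), Wars1 (0.0474) and Ube2j1 (0.0743).

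In the contrast of effects they were Atf4 with array median (-0.0014), no (-1.53) and spike-in scaling (-0.966) and pools left out (-0.0442 to 0.401), Ddit3 after normexp (-0.0055), array median (-0.11), no (-1.64) and spike-in scaling (-1.08) and pools left out (-0.13 to 0.25), Dnajb9 after normexp (0.58), with pools 1 and 2 only (0.11) and pools left out (-0.832 to 0.0287), Herpud1 without scaling (-1.38) and with spike-ins (-0.81), and Trib3 after normexp (0.19). Between vehicle tissues they were Ddit3 after normexp (0.48), array median (0.0928), no (2.04) and spike-in scaling (1.71), and Trib3 without scaling (1.56) and with spike-ins (1.23). Scaling to the array median or to spike-ins, or leaving scaling out, shifts every gene of an array alike, whereas quantile scaling does not. For the other changes the cause was not tested. Dim vehicle blood arrays limit the values of Atf3, Dnajb9 and Ern1.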

Other observations

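Several textbook targets of ATF4 and CHOP were measured in heart beside Trib3 and did not pass the threshold. They are named here after their values were seen. Chac1 gave 0.08, Atf5 -0.03, Fgf21 0.05, Ddit4 0.44, Gdf15 0.56 and Ppp1r15a, which encodes the eIF2 phosphatase subunit GADD34, 0.29 on the log2 scale (adjusted p between 0.282 and 0.932). Stc2, a secreted glycoprotein gene, had the difference of 0.85 with groups that did not overlap (adjusted p = 0.0550). Sesn2, a sestrin gene of the amino acid response, had that of -1.09, lower in all 3 pools (adjusted p = 0.159). Sesn2, Chac1 and Fgf21 were well above background on only 2 of 3 amiodarone heart arrays, so the sizes of their differences are less certain.

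Plasma cells, which secrete antibody and carry much ER, were followed with 6 markers. Their share of the summed signal was 0.000165% to 0.000292% in vehicle blood and 0.000594% to 0.000750% in amiodarone blood. Prdm1 and Sdc1 passed as higher in blood, while Mzb1 and Tnfrsf17 did not pass. Prdm1 and Sdc1 were each well above background on all 3 amiodarone arrays and on no vehicle array, so the size of their rises was not measured. Irf4 and Jchain were not well above background on any array. The part of these cells in the blood values of Hspa5 and Herpud1 was not tested.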
